A study of Mus musculus with 12 samples.

Results

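Olr1, Scarb1, Scarb2, Scarf1, Scara3, Msr1, Mrc1 and Lrp1 encode scavenger and endocytic receptors, and their expression was examined in TSEC, a murine liver sinusoidal endothelial line that has been immortalized. Each gene was represented by the transcript cluster, the probe set of an Affymetrix Mouse Gene 2.0 ST array, that carried its symbol and no other. Of the 8 genes, 6 had such a cluster, 1 each, among the 13556 genes of the table with a transcript cluster of their own. Scarf1 and Msr1 were carried by no cluster, alone or with other symbols, and were not analysed here. The table held only clusters over 4.5 in at least 1 array, so a gene absent from it may have been below detection. The 12 arrays fell into 4 groups of 3. Media cells received neither agent, FFA cells received 0.66 mM oleic acid and 0.33 mM palmitic acid, INT-767 cells received 30 μM of INT-767, a semisynthetic bile acid that activates the receptors FXR and TGR5, and FFA+INT-767 cells received all of these, for 8 hours in each group. Doses and times are those of the sample labels. The study's methods give a lower dose of oleic acid and a longer time for the FFA arrays, and which applied is not known. All groups were the same line. For cells given fatty acids the methods describe culture medium with albumin and fatty acid stocks dissolved in DMSO. They do not say whether the Media and INT-767 groups had albumin or DMSO. The labels call the arrays biological replicates and the methods call them wells, so p-values here reflect the spread among these arrays alone, and that spread may be technical.

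Scavenger receptors take up modified lipoproteins, dying cells and waste molecules from the circulation, and the sinusoidal endothelium of the liver is one of the main sites of this clearance. Olr1 (LOX-1) is a lectin-like receptor for oxidized LDL in endothelial cells. Scarb1 (SR-BI) is the HDL receptor that takes up cholesteryl esters, and its relative Scarb2 (LIMP-2) is a lysosomal membrane protein that carries glucocerebrosidase to the lysosome. Lrp1 is a large endocytic receptor of the LDL receptor family that clears remnant lipoproteins and protease complexes. Mrc1 (CD206) is the mannose receptor, which clears glycoproteins in sinusoidal endothelium and macrophages. Scara3 is a class A relative described in human cells as protective against oxidative stress.

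On the mouse assembly GRCm38.p6, as annotated by RefSeq, Olr1 lies at chr6:129479150-129507350, Scarb1 at chr5:125277087-125341094, Scarb2 at chr5:92441311-92505657, Lrp1 at chr10:127538157-127621148, Scara3 at chr14:65919394-65953978 and Mrc1 at chr2:14229414-14332023. Promoter sequence from RefSeq was at hand for 4 of the 6 measured genes. The 250 bases before the start site were searched on both strands for TGANTCA (the AP-1 motif), the GATA factor motif AGATAA, the nuclear receptor half-site AGGTCA, the GC box GGGCGG, the TATA box sequence TATAAA and the E-box CACGTG. The stretches of 30 bases below hold the matches, in capitals, and are shown because Olr1, the gene picked for its difference between treatments, had matches of another kind than the 3 genes beside it.
Olr1, chr6:129507200-129507229, minus strand, bases 64 to 35 before the start: cggtTGAGTCAtcctctgctAGATAAgagc
Scarb2, chr5:92505658-92505687, minus strand, bases 30 to 1 before the start: catgactgaaggcctCCGCCCggcccctcc
Mrc1, chr2:14229294-14229323, plus strand, bases 120 to 91 before the start: ctgtttttctaaCCGCCCccatgtgacagg
Lrp1, chr10:127621230-127621259, minus strand, bases 111 to 82 before the start: ttttttctttccCCGCCCcttccctccttc

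The Olr1 stretch holds an AP-1 match at bases 60 to 54 and a GATA match at bases 44 to 39. A half-site match lay farther upstream, at bases 175 to 170, and none of these matches overlapped. The start used lies 185 bases inside the annotated span of Olr1, so these bases are upstream of 1 start of the gene and not of all. Scarb2, Mrc1 and Lrp1 held a GC box, read as CCGCCC on the strand shown, and no match of the other 5 kinds. Of 32851 RefSeq mouse promoter windows of the same length, 6.75% held an AP-1 match, 9.99% a GATA match, 14% a half-site, 32.7% a GC box, 12.4% a TATA match and 6.02% an E-box. The Olr1 window had a GC content of 45.2% and that of Mrc1 49.6%, whereas those of Scarb2 (65.6%) and Lrp1 (67.2%) were above the median of 52.4% over all windows. These matches describe letters in the windows only.

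The log2 expression values, as deposited, were used without further scaling, with array medians of 5.76 to 5.87 and correlations between arrays of at least 0.972. A value over 4.5 in at least 1 array was the study's criterion for a present transcript, and all 26076 transcript clusters met it. Of 12 endothelial marker genes, 4 had a cluster of their own (Kdr, Eng, Egfl7 and Esam). Egfl7 (5.10 to 5.58) and Esam (4.69 to 5.99) were over 4.5 in all 12 arrays, Kdr in 3 and Eng in 1. Pecam1, Cdh5, Tek and Tie1 had no cluster of their own. Of 9 sinusoidal endothelial markers, Gata4 and Flt4 were over 4.5 in every array and Mrc1 was the only other one with a cluster of its own. Stab1, Stab2 and Lyve1, which define this cell type, had none. Markers without a cluster of their own may have been below detection in every array. They may also share a cluster with other symbols, which was not searched for the markers. The sinusoidal endothelial label therefore rests on few markers here. Of 12 macrophage markers only Clec4f had a cluster of its own, at 4.24 to 4.52, near the detection level. Of 9 stellate cell and fibroblast markers, 7 were measured and 6 were over 4.5 in all arrays. Their summed log2 level was 46.1 to 64.5 in Media, 46.1 to 58.4 in FFA, 41.6 to 59.2 in INT-767 and 43.0 to 53.9 in FFA+INT-767, with the highest value in replicate 1 of each group.

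Olr1 was highest in Media and was lower in the groups given fatty acids, INT-767 or both. Its log2 expression was 9.06, 8.88 and 10.11 in Media replicates 1 to 3, and 8.51, 8.91 and 8.45 in FFA. It was 8.62, 8.32 and 8.24 in INT-767, and 8.25, 8.45 and 8.46 in FFA+INT-767. Media replicate 3 stood far above every other array, the FFA arrays overlapped with Media through FFA replicate 2, and all arrays with INT-767 were below all Media arrays. The group means were 9.35 ± 0.66 (SD, n = 3) in Media, 8.63 ± 0.25 in FFA, 8.39 ± 0.20 in INT-767 and 8.39 ± 0.12 in FFA+INT-767. The means of Media and FFA, the arrays on which the gene was picked, were 0.73 apart, where Media alone had an SD of 0.66. FFA and INT-767 were 0.23 apart, and INT-767 and FFA+INT-767 0.0055 apart, less than the SD pooled over the 4 groups (0.37).

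**Figure D1:**
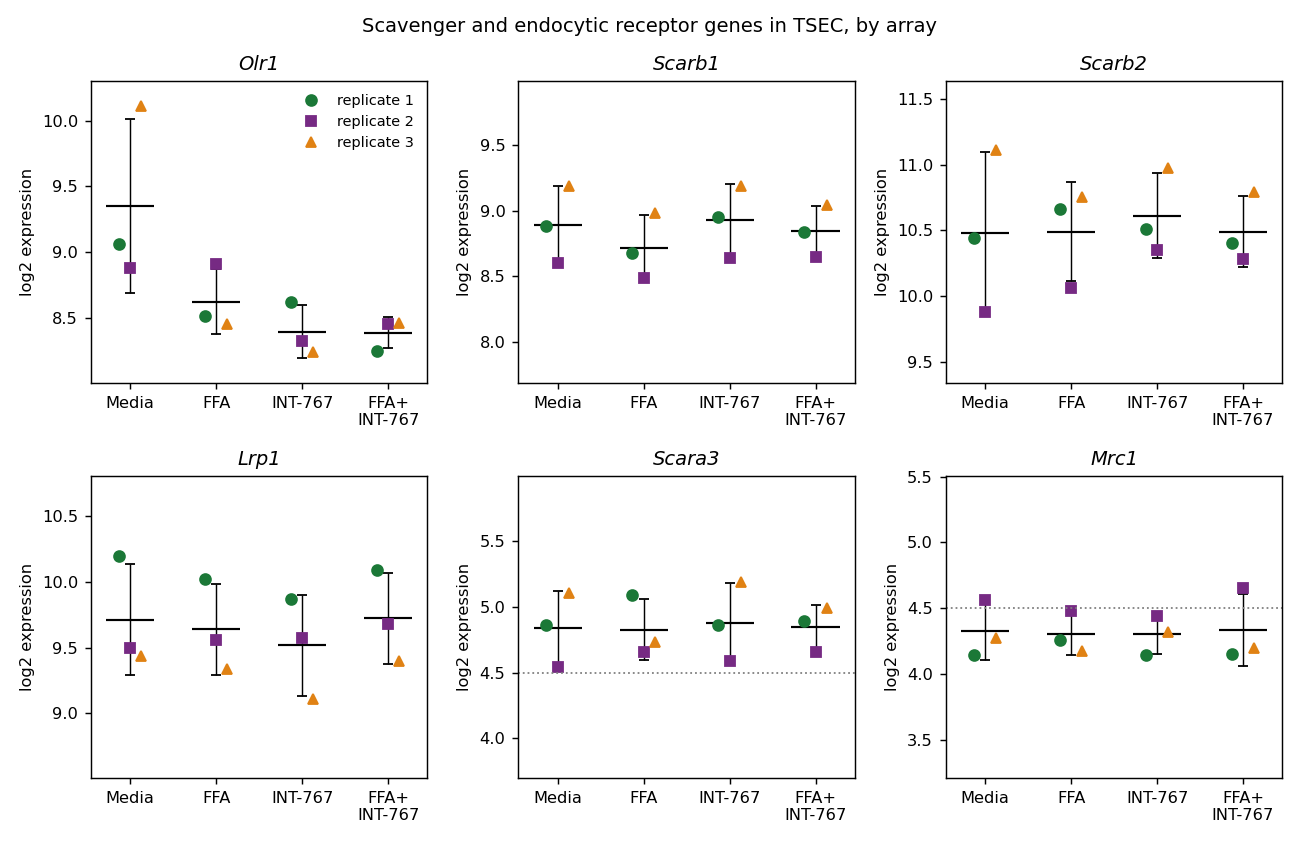
Log2 expression of the 6 measured receptor genes on each of 12 arrays (vertical axes, each 2 or more log2 units high with its own range) by treatment group (horizontal axes), with a symbol for each replicate number, a bar at the group mean and whiskers of 1 SD. Dotted lines mark 4.5. Olr1 is highest in Media replicate 3 (10.11), while Scarb1, Scarb2 and Lrp1 keep 1 order of replicate numbers in all groups and Mrc1 is highest in replicate 2 of each.

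The study picked Olr1 on the FFA and Media arrays, and its value for INT-767 was known when the genes were chosen, so these differences are given as a description with no test. Relative to Media, the log2 fold change was -0.73 in FFA (standard error 0.33), a ratio of 0.604, and -0.96 in INT-767 (standard error 0.32), a ratio of 0.515. Both comparisons use the same Media arrays. Between arrays of the same replicate number the FFA differences were -0.55, 0.031 and -1.66, and the INT-767 differences were -0.44, -0.57 and -1.87. Olr1 was thus lower in 2 of 3 pairs with FFA and in 3 of 3 with INT-767, and the pair of replicate 3 gave the largest difference each time. Without Media replicate 3 the log2 fold change was -0.35 for FFA and -0.58 for INT-767. Groups that do not overlap, as for Olr1 in INT-767 against Media, were found in 7.08% of all transcripts in that comparison.

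In cells that had INT-767, the Olr1 difference on adding fatty acids was close to 0, with a log2 fold change of FFA+INT-767 against INT-767 of -0.0055 (standard error 0.14). This comparison uses the INT-767 arrays, whose Olr1 values were known, and is a description as well. The differences by replicate number were -0.37, 0.13 and 0.22, with no shared direction. Adding INT-767 to fatty acids gave -0.24 (standard error 0.15), or -0.26, -0.46 and 0.0094 by replicate number, and -0.093 without FFA replicate 2. The difference between the FFA effect with and without INT-767 was 0.72 on the log2 scale (standard error 0.39), and 0.34 without Media replicate 3. That quantity uses the arrays on which the gene was picked and is a description.

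The HDL receptor gene Scarb1 differed little between treatments and followed the replicate number. It was 8.88, 8.60 and 9.19 in Media and 8.68, 8.49 and 8.98 in FFA, replicates 1 to 3. It was 8.95, 8.64 and 9.19 in INT-767 and 8.84, 8.65 and 9.04 in FFA+INT-767. In each of the 4 groups replicate 2 was lowest and replicate 3 highest, and all groups overlapped. Scarb1 was lower in FFA than in Media in 3 of 3 pairs of arrays with the same number, by -0.20, -0.11 and -0.21. The log2 fold change of -0.17 (standard error 0.19, 95% confidence interval -0.636 to 0.291) did not pass by limma (adjusted p = 1), nor with the replicate number as a block (adjusted p = 0.794). INT-767 against Media gave 0.038, FFA+INT-767 against INT-767 -0.087 and FFA+INT-767 against FFA 0.12, the last with an adjusted p of 0.967 by limma and 0.583 with the block. The group means lay in the order INT-767 (8.93), Media (8.89), FFA+INT-767 (8.84) and FFA (8.72), and no neighbours in it differed beyond the pooled SD of 0.25.

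The lysosomal receptor gene Scarb2 had the same arrangement. It was 10.44, 9.88 and 11.11 in Media and 10.66, 10.06 and 10.75 in FFA. It was 10.51, 10.35 and 10.97 in INT-767 and 10.40, 10.28 and 10.79 in FFA+INT-767. Replicate 2 was lowest and replicate 3 highest in every group, and the Media arrays were spread the most (SD 0.61). The log2 fold changes were 0.013 for FFA against Media (95% confidence interval -0.778 to 0.804), 0.14 for INT-767 against Media, -0.12 for FFA+INT-767 against INT-767 and 0.0025 for FFA+INT-767 against FFA. The group means lay within 0.14 of each other, less than the pooled SD of 0.42.

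Lrp1 was ordered by replicate number as well, but with another replicate on top. It was 10.20, 9.50 and 9.44 in Media and 10.02, 9.56 and 9.34 in FFA. It was 9.87, 9.57 and 9.11 in INT-767 and 10.09, 9.68 and 9.40 in FFA+INT-767. Replicate 1 was highest and replicate 3 lowest in all 4 groups. Replicate 1 was also the array with the highest summed level of stellate and fibroblast markers in each group. Below it the orders differed, since the markers were not lowest in replicate 3, as Lrp1 was, in any group. The part of these markers in the Lrp1 values was not tested. The log2 fold change was -0.075 for FFA against Media (95% confidence interval -0.694 to 0.543) and -0.20 for INT-767 against Media. FFA+INT-767 against INT-767 gave 0.21 (standard error 0.25, 95% confidence interval -0.381 to 0.794), higher in 3 of 3 pairs with the same number, with an adjusted p of 1 by limma and 0.967 with the replicate block. With the block the standard error was 0.092 and the unadjusted p by limma 0.0772. FFA+INT-767 against FFA gave 0.086. The 4 means lay within 0.21 of each other, less than the pooled SD of 0.37.

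Scara3 and Mrc1 were close to the detection level. Scara3 was 4.86, 4.54 and 5.11 in Media and 5.09, 4.66 and 4.73 in FFA. It was 4.86, 4.59 and 5.19 in INT-767 and 4.89, 4.66 and 4.99 in FFA+INT-767. All 12 values were over 4.5 and replicate 2 was lowest in each group. Mrc1 was 4.14, 4.56 and 4.27 in Media, 4.26, 4.48 and 4.17 in FFA, 4.14, 4.44 and 4.32 in INT-767, and 4.15, 4.65 and 4.20 in FFA+INT-767. Mrc1 passed the detection criterion through replicate 2 of Media and of FFA+INT-767 only, in 2 of 12 arrays, so its differences are differences near background. The log2 fold changes of these genes lay between -0.032 and 0.039 in the 4 comparisons of treatments, and the 4 means of each gene lay within 0.051 (Scara3) and 0.035 (Mrc1) of each other.

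**Figure D2:**
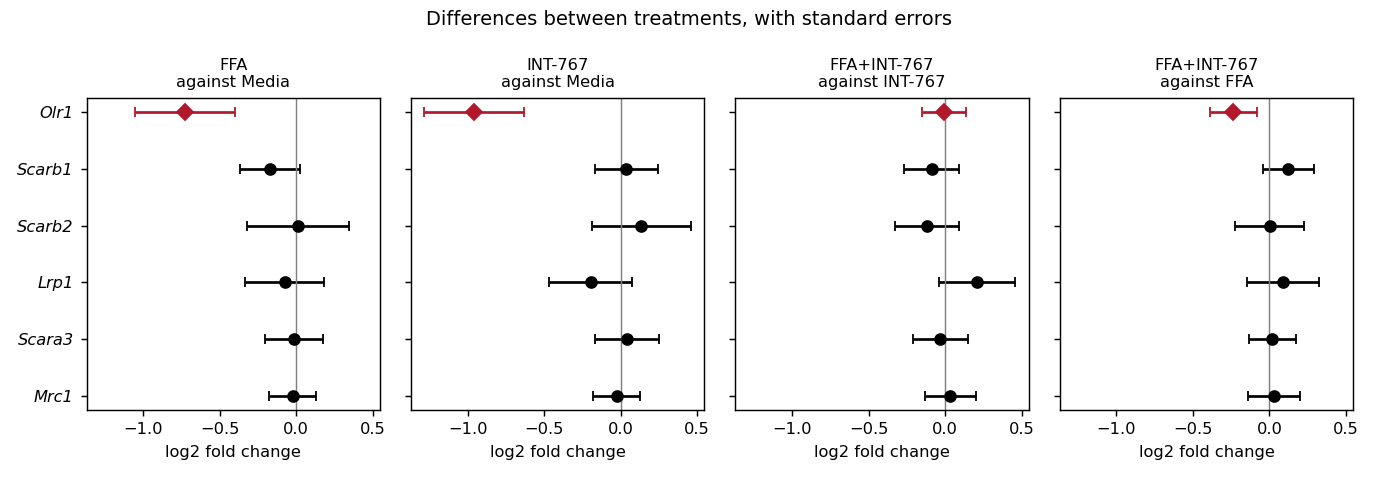
Log2 fold change of each measured receptor gene (horizontal axes) in the 4 comparisons of treatments, with whiskers of 1 standard error from limma. Olr1 (red) is at -0.73 in FFA and -0.96 in INT-767 against Media and near 0 between FFA+INT-767 and INT-767, and the other 5 genes lie between -0.20 and 0.21.

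Of the 5 genes other than Olr1, 0 were called in any comparison of treatments at a Benjamini-Hochberg adjusted p under 0.05 by limma, and 0 had an unadjusted p under 0.05. Over all transcripts the adjusted criterion was passed by 0% in each of these comparisons, so the receptors shared this with every other transcript. The unadjusted criterion was passed by 2.68% of transcripts in FFA against Media, 2.92% in INT-767 against Media, 2.14% in FFA+INT-767 against INT-767, 4.73% in FFA+INT-767 against FFA, 2.69% for the interaction of FFA and INT-767 and 3.16% for a difference among the 4 treatments. The F test over the 4 treatments gave the 5 genes unadjusted p-values of 0.725 to 0.995. With the replicate number as a block, the same limma test gave 0.0739 (Scarb1) to 0.98 (Scara3), and the smallest adjusted p was 0.565. These 5 genes had wider standard errors and intervals without the block, and those are the ones printed unless stated. Their groups overlapped in each pairwise comparison, where 7.01% of transcripts did not overlap for FFA against Media, 5.58% for FFA+INT-767 against INT-767 and 9.78% for FFA+INT-767 against FFA. The median log2 fold change of the 5 genes was -0.022, 0.038, -0.032 and 0.030 in the pairwise comparisons in the order given, against 0.0037, -0.015, 0.0050 and -0.016 over all transcripts.

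The variation of the receptors over the 12 arrays was divided between treatment, replicate number and remainder. For Olr1, treatment held 62.4% of the sum of squares, which the choice of the gene on these arrays favours, and replicate number held 3.27%. For the other genes treatment held 12.7% (Scarb1), 6.78% (Lrp1), 2.54% (Scarb2), 0.844% (Scara3) and 0.756% (Mrc1), below the median of 21.1% over all transcripts. Replicate number held 88.2% for Lrp1, 85.0% for Scarb1, 84.9% for Mrc1, 81.9% for Scarb2 and 67.6% for Scara3, where the median over all transcripts was 33.2%. The share of Mrc1 is favoured by the detection criterion, which it passed through arrays of a single replicate number. Replicate means differed by 0.76 on the log2 scale for Scarb2 (10.50, 10.14 and 10.91) and by 0.72 for Lrp1 (10.04, 9.58 and 9.33). The replicate means of Olr1 (8.61, 8.64 and 8.82) differed by 0.20.

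**Figure D3:**
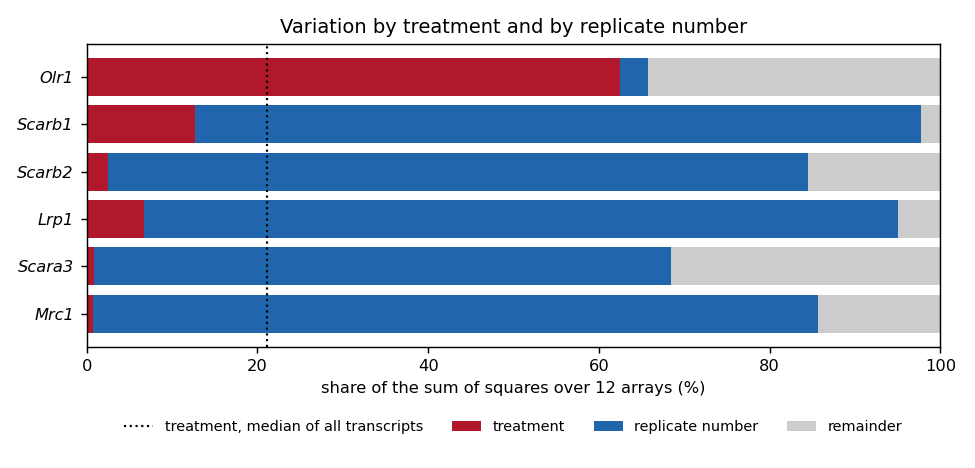
Share of the sum of squares over 12 arrays (horizontal axis, percent) that went with treatment, with replicate number and with neither, for each measured receptor gene. Treatment held 62.4% for Olr1 and at most 12.7% for the other genes, and the dotted line marks the median of 21.1% over all transcripts.

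An F test of the replicate number with treatment as a factor was added after the values had been seen. By limma it called Lrp1 (adjusted p = 0.00235), Scarb1 (adjusted p = 0.00346) and Scarb2 (adjusted p = 0.0104), but not Scara3 (adjusted p = 0.0638) or Olr1 (adjusted p = 0.788). Mrc1 was called as well (adjusted p = 0.0235), but it was over 4.5 only in replicate 2 arrays and so entered the test through the replicate number in which it was high, and its call is no support for a difference. Of all transcripts 20.4% were called in this test. What a replicate number stands for, a plating, a day or a chip, is not given in the sources used here. The call of Mrc1 was lost in 6 of 12 fits that left out 1 array, with adjusted p-values of 0.0501 (without Media replicate 1), 0.0603 (Media replicate 2), 0.0569 (FFA replicate 2 and, likewise, INT-767 replicate 1), 0.0536 (FFA+INT-767 replicate 1) and 0.0729 (FFA+INT-767 replicate 2). Scara3 was called without FFA replicate 3 (adjusted p = 0.0176).

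Over the 12 arrays, which share replicate numbers, Scarb1 and Scarb2 had a Pearson correlation of 0.885, Scarb2 and Scara3 of 0.846 and Scarb1 and Scara3 of 0.753. After the mean of each replicate number was subtracted these were 0.309, 0.614 and 0.166. Mrc1 ran against these 3 genes, with correlations of -0.619, -0.561 and -0.556 with Scarb1, Scarb2 and Scara3, and of 0.140, 0.334 and 0.665 after the subtraction. Olr1 had correlations of -0.015 to 0.216 with the other 5 receptors. After the subtraction they were 0.051 to 0.399, the highest with Lrp1.

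The genes whose pattern over the 12 arrays was most like that of Olr1, by Pearson correlation among 13555 genes, were Atoh8 (0.962), Trib1 (0.951), Phlda1 (0.936), Dlx2 (0.935) and Zfp36l2 (0.927). Atoh8 and Dlx2 are transcription factors, Trib1 is a pseudokinase and Zfp36l2 is an RNA-binding protein that destabilizes messages. Atoh8 was 8.45, 8.31 and 9.42 in Media, 8.33, 8.33 and 8.09 in FFA, 8.21, 8.15 and 8.02 in INT-767, and 7.99, 8.06 and 7.98 in FFA+INT-767. All 5 genes were highest in Media replicate 3, as Olr1 was. Without that array the correlations were 0.855, 0.882, 0.747, 0.722 and 0.745 in the same order. With the mean of each replicate number subtracted, the most similar genes were Tuft1 (0.975), Ier5l (0.973), Npy1r (0.967), Tnfrsf1b (0.964) and Zfp36l2 (0.964). The likeness was chosen from many genes on the same arrays and is a description.

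**Figure D4:**
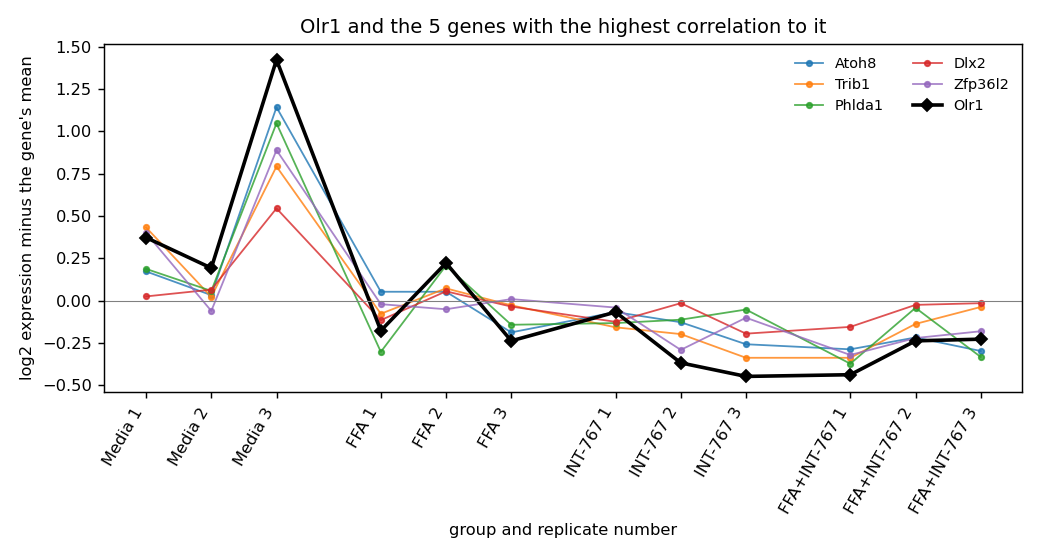
Log2 expression minus the mean of each gene (vertical axis) on the 12 arrays by group and replicate number (horizontal axis), for Olr1 (black) and the 5 genes with the highest correlation to it. The 6 genes all peak in Media replicate 3, and the correlations without this array were 0.722 to 0.882. Lines join the arrays of all groups only to guide the eye.

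Of 23 scavenger receptor genes of classes A to L, 16 were measured. Stab1, Stab2, Marco, Cd163 and Cd163l1 had no cluster of their own, besides Msr1 and Scarf1, and may have been below detection. Of these, only Msr1 and Scarf1 were also searched for in clusters with several symbols. Cd36, the fatty acid translocase of class B, was 4.32, 4.24 and 4.39 in Media, 6.01, 4.06 and 7.36 in FFA, 4.27, 4.33 and 4.32 in INT-767 and 5.04, 4.19 and 6.22 in FFA+INT-767. Replicates 1 and 3 with fatty acids were high, and replicate 2 with fatty acids was at the level of the arrays without. All 6 arrays without fatty acids were below 4.5, so Cd36 passed the detection criterion through arrays with fatty acids only, and its differences are taken from a level below detection. The log2 fold change was 1.49 in FFA against Media (standard error 0.74) and 0.84 in FFA+INT-767 against INT-767 (standard error 0.46), given with no test.

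Cxcl16, the class G receptor that is also a chemokine, was 7.25, 6.51 and 7.39 in Media and 6.35, 6.32 and 6.27 in FFA, which did not overlap. It was 6.73, 5.83 and 6.58 in INT-767 and 6.30, 5.88 and 6.40 in FFA+INT-767. The log2 fold change in FFA against Media was -0.74 (standard error 0.23), and in INT-767 against Media -0.67 (standard error 0.32). The study picked Cxcl16 on the FFA and Media arrays, so these values are a description, as for Olr1.

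**Figure D5:**
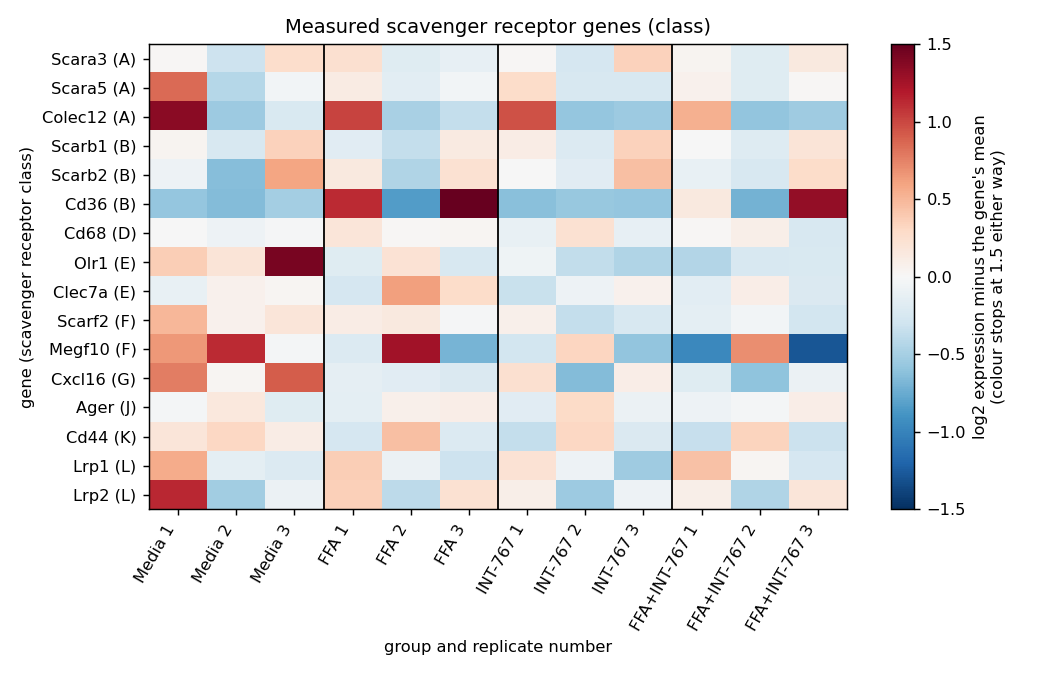
Log2 expression minus the mean of each gene (colour) for the 16 measured scavenger receptor genes, ordered by class (vertical axis), on the 12 arrays (horizontal axis). Olr1 is above its mean in all 3 Media arrays, Colec12 in replicate 1 of every group, and Cd36 in replicates 1 and 3 of both groups with fatty acids.

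Among the other classes, Colec12 (class A) followed the replicate number, which held 93.1% of its sum of squares, with 8.32 to 9.14 in the replicate 1 arrays of the 4 groups and at most 7.55 in any other array. Like Lrp1 it was highest where the stellate and fibroblast markers were highest, and the part of these in it was not tested. Scarf2, the class F relative of Scarf1, was 7.31 ± 0.22 in Media and 6.88 ± 0.22 in INT-767 (SD, n = 3). Its log2 fold change of -0.43 (standard error 0.17, limma adjusted p = 1) did not pass, nor did it with the block (adjusted p = 0.507). Megf10, which takes part in the engulfment of dying cells, had -0.76 in INT-767 against Media (standard error 0.34, adjusted p = 1, and 0.413 with the block).

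Outside the 6 measured genes, the class list had 11 genes, of which 11 were tested in FFA against Media and 10 in each of the other pairwise comparisons. In FFA against Media 4 were higher and 7 lower, with a median log2 fold change of -0.14 that ranged from -0.23 to 0.073 when 1 array was left out, the highest without Media replicate 1. In INT-767 against Media 2 were higher and 8 lower (median -0.26, and -0.47 without Media replicate 2 to -0.15 without INT-767 replicate 2), and in FFA+INT-767 against FFA 0 were higher and 10 lower (median -0.18). In FFA+INT-767 against INT-767 4 were higher and 6 lower (median -0.020, and -0.073 to 0.056 with 1 array left out). Cd36 passed the detection criterion through arrays with fatty acids only. Cd36 is counted as higher in both comparisons that add fatty acids and as lower in FFA+INT-767 against FFA. Cxcl16, picked on the FFA and Media arrays, is counted as lower in every comparison. Scara5 passed the criterion through Media replicate 1 only and is counted as lower in both comparisons with Media. These counts and medians are therefore a description. The stellate and fibroblast markers had 7 of 7 genes lower in FFA against Media (median -0.42), in INT-767 against Media (median -0.66) and in FFA+INT-767 against FFA (median -0.32), and 5 of 7 lower in FFA+INT-767 against INT-767 (median -0.15), with 0 past adjustment by limma, and their part in the receptor values was not tested. Of the LDL receptor family without Lrp1, 5 of 8 tested genes were higher in FFA than in Media (median 0.10, and -0.019 without FFA replicate 3). In FFA+INT-767 against INT-767 8 of 9 were higher (median 0.11, and -0.010 without FFA+INT-767 replicate 3). Most were higher on adding INT-767 as well, with 7 of 9 in INT-767 against Media (median 0.059, and -0.058 without INT-767 replicate 2). In FFA+INT-767 against FFA 7 of 8 were higher (median 0.059, and 0.0020 without FFA replicate 2). No gene of these lists, of the mannose receptor family, of the receptor adaptors and sheddases or of the clathrin and caveolar genes passed adjustment by limma. Apart from Cxcl16, 2 genes of these lists had groups that did not overlap together with an unadjusted p under 0.05 by limma without the block, both in FFA+INT-767 against FFA. In that comparison 9.78% of all transcripts did not overlap and 4.73% had an unadjusted p under 0.05 by limma. The share that met both was not computed, so the 2 genes are a description. Lrp11, of the LDL receptor family, was 4.75, 4.65 and 5.29 in FFA and 5.35, 5.53 and 5.32 in FFA+INT-767, a log2 fold change of 0.50 (standard error 0.19, adjusted p = 0.958). Cav1, the main protein of endothelial caveolae, was 9.52, 9.24 and 9.10 in FFA and 9.07, 8.62 and 8.97 in FFA+INT-767, a log2 fold change of -0.40 (standard error 0.17, adjusted p = 0.958).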

How the data were processed

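Total RNA of TSEC was hybridised to 12 arrays. The deposited log2 expression values were made by the authors in Partek 6.6, by RMA according to the submitters' processing notes or GC-RMA according to the methods, and were filtered to transcripts over 4.5 in at least 1 array. Either method sets the arrays on a common scale, so a shift of all genes would not show. The genome build behind the annotation is not given in the sources used here. Arrays were grouped by the treatment in their labels. Of the transcript clusters, 14317 carried 1 gene symbol, 1397 several and 10362 none, and genes were read from those with 1, by the cluster of highest mean over 12 arrays. No depth applies to arrays, and 3 per group limit the precision.

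Treatments were compared with limma 3.58.1 in R 4.3.3 (lmFit, eBayes), without a block, since the methods name an ANOVA and no block, over the 24824 to 26076 transcripts over 4.5 in at least 1 array of each fit, with Benjamini-Hochberg adjustment over all of them and a threshold of 0.05. Correlations and shares of the sum of squares are descriptions. Deviations from the group means were correlated between arrays that share a replicate number (0.197 to 0.535 in 18 pairs, against -0.453 to 0.0464 in 36 pairs with different numbers), so the number was taken to pair the arrays and a replicate block was fitted as an alternative. Each fit was also repeated unfiltered, with a detection minimum of 3 arrays, with arrays brought to the same median, with quantile normalization, array weights, an intensity trend with a robust prior, every array fitted jointly, the unmoderated ANOVA, gene means over clusters and each array left out in turn. The fit of FFA against Media was also run on simulated arrays drawn independently of each other. That simulation held no effect of replicate number, so it does not cover the pairing found here.

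Named genes were the measured members, the genes most like Olr1 (5 by each of the 12-array and replicate-centred correlations), up to 5 related genes per comparison whose groups did not overlap at an unadjusted p under 0.05, and Stab1, Stab2, Marco, Cd163, Cd36 and Cxcl16. Colec12, Scarf2 and Megf10 were named after their values were seen. Members and lists were chosen with earlier results of these data known. Motifs were counted in RefSeq promoter windows. The protein, cell and animal experiments of the study were not analysed here.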

Additional observations from a re-analysis of the deposited data

How the results depend on the processing

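The count of receptor genes called for a treatment was 0 under all 106 alternatives, the replicate block included. In the pairwise comparisons and the interaction, the smallest adjusted p of a tested receptor gene under them was 0.583. That minimum leaves out the F test over the 4 treatments, which by limma with the block gave Scarb1 an adjusted p of 0.565. With the block, 0 transcripts passed in any comparison, and 5.89%, 8.07%, 4.72% and 12.1% had an unadjusted p under 0.05 in FFA against Media, INT-767 against Media, FFA+INT-767 against INT-767 and FFA+INT-767 against FFA, 4.91% for the interaction and 9.23% for the 4 treatments. The count of genes that differed by replicate number was 3 to 5 over 19 alternatives, against 4 with Mrc1 counted, and included Scarb1, Scarb2 and Lrp1 each time. Mrc1 could not be called with the filter of 3 arrays, which removes it, and Scara3 was gained with arrays shifted to the same median (adjusted p = 0.0413).

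Olr1 stayed lower than Media with FFA (-0.96 to -0.35 with 1 array left out) and with INT-767 (-1.19 to -0.58). Fold changes turned sign in 59 refits of a receptor gene, in 22 results of at most 0.196 on the log2 scale, so no direction can be given for these. Quantile normalization gave, in FFA against Media, -0.0078 for Scarb2, 0.014 for Scara3 and 0.0015 for Mrc1, in FFA+INT-767 against INT-767 0.0076 for Olr1, and in FFA+INT-767 against FFA -0.012 for Scara3 and -0.0027 for Mrc1. A shared median gave 0.0097 (INT-767 against Media) and -0.00044 (FFA+INT-767 against INT-767) for Mrc1, and array weights 0.039 for Olr1 in the latter.

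With 1 array left out, the values in FFA against Media ran from -0.28 to 0.33 for Scarb2, -0.16 to 0.13 for Scara3, -0.11 to 0.046 for Mrc1 and -0.26 to 0.17 for Lrp1. In INT-767 against Media they ran from -0.11 to 0.19 for Scarb1, -0.16 to 0.45 for Scarb2, -0.12 to 0.18 for Scara3, -0.12 to 0.054 for Mrc1 and -0.37 to 0.048 for Lrp1. In FFA+INT-767 against INT-767 they ran from -0.083 to 0.11 for Olr1, -0.23 to 0.045 for Scarb1, -0.27 to 0.061 for Scarb2, -0.18 to 0.12 for Scara3 and -0.046 to 0.13 for Mrc1. In FFA+INT-767 against FFA they ran from -0.21 to 0.13 for Scarb2, -0.064 to 0.15 for Scara3, -0.038 to 0.12 for Mrc1 and -0.097 to 0.27 for Lrp1. For the interaction they ran from -0.062 to 0.23 for Scarb1, -0.45 to 0.16 for Scarb2, -0.16 to 0.13 for Scara3 and -0.10 to 0.15 for Mrc1. The cause of these turns was not tested.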
